A study of Rattus norvegicus with 30 samples.

Results

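The renal cortex (Cx) of Sprague-Dawley rats was compared 14 d after a switch from 0.4% to 4.0% NaCl in the diet (HS14, replicates 6 to 10) with the Cx of rats that stayed on 0.4% NaCl (LS, replicates 1 to 5). These 10 libraries, taken by their tissue and diet labels, are 10 of the 30 in the series, which also holds Cx after 21 d of the 4.0% NaCl diet (HS21) and the outer medulla (OM) of all 3 diet groups, with 5 libraries in each. All rats were males of this outbred strain kept on the 0.4% NaCl AIN-76A diet before the switch, and no transgene or deletion is given for any group. Samples were taken at 1 time of day, and the sources used here do not give the age of the rats that gave tissue or say that equal replicate numbers in Cx and OM mark the same rat. The labels number the replicates within each group, and the *P* values below measure the spread between these numbered samples. Poly(A) RNA from pieces of the right kidney was sequenced, and each level below is a read count of a gene scaled to the size of its library (CPM, with TMM normalisation). The question was how the Cx differs from the LS state at the earlier of the 2 times on the high salt diet.

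The cortex is mostly proximal tubule, which reabsorbs the bulk of the filtered sodium, glucose, amino acids and organic anions and pays for this mainly by oxidising fatty acids in mitochondria and peroxisomes. Many of the enzymes of that pathway, and the fatty acid hydroxylases of the *Cyp4a* family, are known targets of the nuclear receptor PPAR alpha. Resident macrophages and few other leukocytes lie between the tubules, and alarmins, chemokines and NF-kappa B target genes are the usual transcripts that rise when myeloid cells enter or are activated. Because each library is RNA from bulk tissue, fewer cells of a type and less RNA per cell cannot be told apart in any of the results below.

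All 10 libraries held proximal tubule genes at high levels. The proximal tubule genes *Slc34a1*, the phosphate cotransporter, and *Lrp2*, the endocytic receptor megalin, lay at 4618 to 6223 CPM and 3503 to 5409.5 CPM. Only 2 of 12 markers of medulla, papilla and urothelium passed the filter on low counts. These 12 summed to 4.61 to 5.76 CPM in LS, 5.09 to 5.44 CPM in HS14 replicates 6 to 9 and 7.88 CPM in replicate 10. A share of outer medulla in the pieces was not tested. The libraries held 13953714 to 21842843 counted reads, with 12.8% to 17.5% of them on mitochondrial genes and 0.888% to 1.15% on ribosomal protein genes. Replicates within a group differed by more than counting noise in all pairs, which cannot by itself show that each is a separate rat. Each numbered replicate was taken as 1 rat.

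Replicate 10 of HS14 stood apart from the other 4 HS14 libraries and was therefore left out in a second fit of every comparison. Over 13768 genes its root mean square log2 distance from the mean of the other HS14 libraries was 0.464, against 0.359 to 0.379 for replicates 6 to 9, while its distance was 0.495 to the LS mean and 0.487 to the HS21 mean. It thus lay slightly nearer to its own group than to the HS21 libraries when all genes were counted. The resemblance to HS21 lay in the tubule markers. The mean log2 CPM of the 27 proximal tubule markers, relative to the LS mean, was -0.54 in replicate 10, -0.09 to -0.04 in replicates 6 to 9 and -0.86 to -0.52 in the HS21 rats. Markers of the distal nephron went the other way in this library, at 0.61 for the distal convoluted tubule, 0.86 for the connecting tubule and principal cells and 0.93 for intercalated cells, each above replicates 6 to 9. Thick ascending limb and macula densa markers were at 0.33 in this library, against -0.31 to -0.12 in replicates 6 to 9 and 0.01 to 0.36 at HS21. Its leukocyte markers did not follow HS21, since they stood at 0.16, against 0.46 to 0.85 in replicates 6 to 9 and 0.64 to 2.21 at HS21. Replicate 10 also had the largest mitochondrial share of the 10 libraries, 17.5%, and the lowest mean of the 22 circadian clock genes, -0.54 against -0.11 to 0.03 in replicates 6 to 9.

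**Figure D1:**
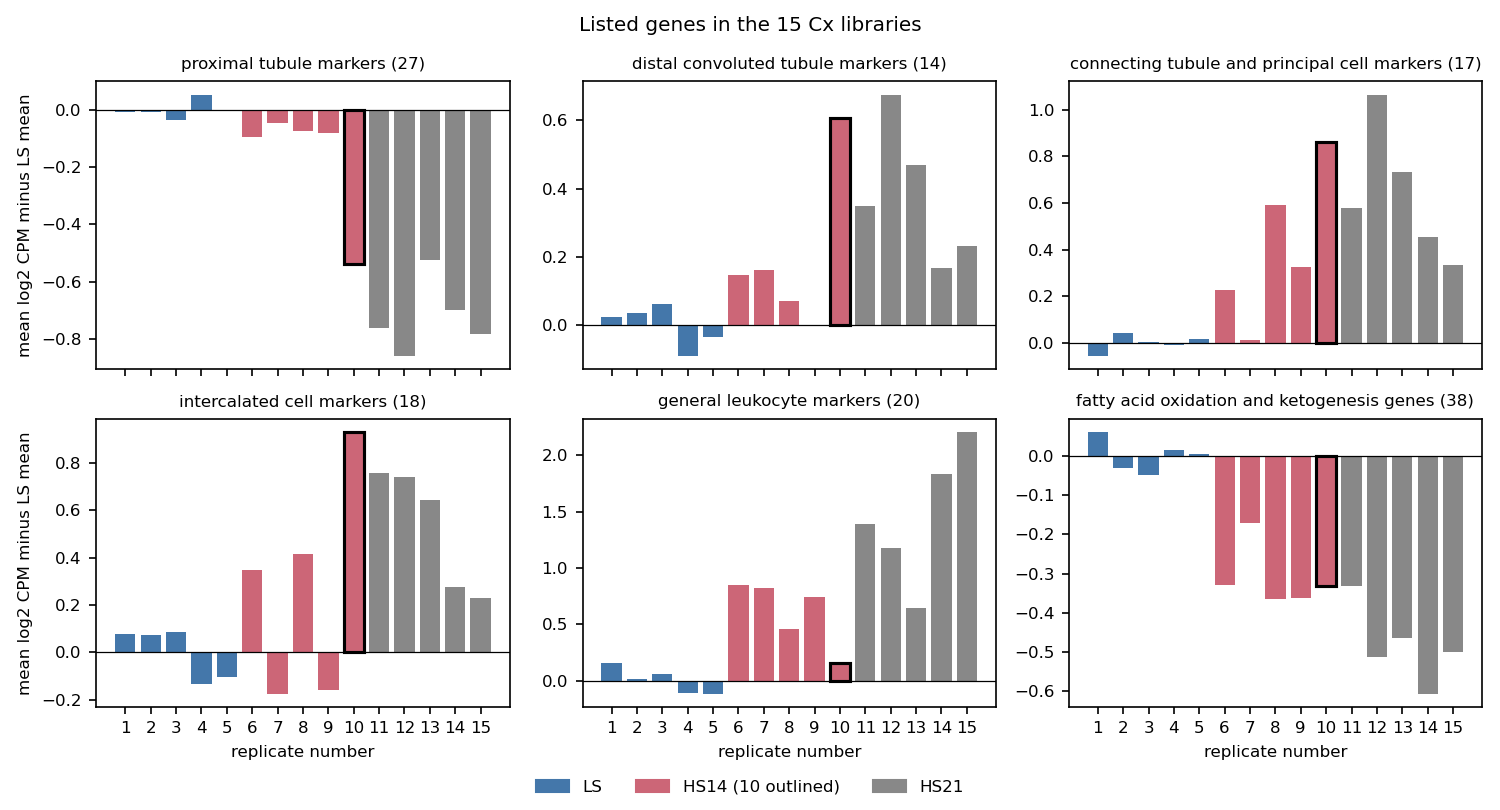
Mean log2 CPM of 6 gene lists in each of the 15 Cx libraries, minus the mean of the 5 LS libraries (y axis), by replicate number (x axis). Blue bars are LS, red HS14 with replicate 10 outlined, and grey HS21; the number of genes is in each title. Replicate 10 sits with HS21 for the proximal and distal tubule markers (-0.54 for the proximal list) but has the lowest leukocyte value of the HS14 rats (0.16), while fatty acid oxidation genes are low in all 5 HS14 rats.

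Of 14181 genes tested, 162 rose and 168 fell at HS14 (adjusted *P* under 0.05), which is 2.33% of the genes tested, 1.14% raised and 1.18% lowered. Raised genes changed more, with a median log2 ratio of 0.78 against -0.51 for the lowered genes, and the median over all genes tested was -0.0021. Of the 330 genes called, 296 had no overlap between the 5 LS and the 5 HS14 rats, where 5.27% of all genes tested had none. Without replicate 10, 274 genes rose and 197 fell of 14256 (3.30%, with 1.92% raised and 1.38% lowered). Of these, 151 raised and 144 lowered genes were also called with it, 176 genes were called only without it and 35 only with it, and no gene called with it changed sign. Other single libraries mattered as well, since leaving out LS replicate 4 gave 42 raised and 43 lowered genes, and 75 genes were called in all 10 fits that each left out 1 library. For every gene named below whose groups did not overlap, the two-sided exact permutation test gave *P* = 0.00794, the smallest value a design of 5 against 5 allows. Full separation fixes this value, and some genes were named because they had it, so the test adds nothing to the separation itself. The adjusted *P* values are those of edgeR's quasi-likelihood test.

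Genes of fatty acid oxidation and ketone body synthesis were among those that fell. Of 38 listed genes, 16 fell and 1 rose, with a median log2 ratio of -0.23. Leaving out replicate 10 gave 15 lowered with a median of -0.23, and the lowered count was 9 to 17 when any 1 library was left out. The mean log2 CPM of the list was -0.33, -0.17, -0.37, -0.36 and -0.33 in replicates 6 to 10 relative to the LS mean, outside the LS range of -0.05 to 0.06 in each rat. In 4 of those 5 rats the proximal tubule markers were at most 0.09 below the LS mean, and in replicate 10 they were at -0.54. The part of proximal tubule content in the fall of this list was not tested.

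*Eci1*, the isomerase that lets unsaturated fatty acids enter beta-oxidation, was at 173, 119, 124, 144 and 156 CPM in the LS rats and 70.9, 85.4, 48.5, 59.8 and 71.8 CPM in the HS14 rats (log2 ratio -1.09 ± 0.15 (SE), adjusted *P* = 0.00672). *Acaa2*, the thiolase of the last step of mitochondrial beta-oxidation, was at 396, 339, 362, 303 and 274 CPM in the LS rats and 193, 169, 186, 229 and 199.7 CPM in the HS14 rats (log2 ratio -0.78 ± 0.10 (SE), adjusted *P* = 0.00672). Both genes showed a clear gap between the groups in all rats. *Ehhadh*, a bifunctional enzyme of the peroxisomal path, was at 245, 214, 219, 209 and 230.1 CPM in the LS rats and 153, 172, 151, 152 and 132 CPM in the HS14 rats (log2 ratio -0.56 ± 0.07 (SE), adjusted *P* = 0.00525). *Hadh*, the mitochondrial 3-hydroxyacyl-CoA dehydrogenase, gave -0.52 ± 0.07 and adjusted *P* = 0.00592. These 4 calls held in all 10 leave-one-out fits.

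Among genes for the entry of fatty acids into the mitochondrion, *Cpt2*, the inner carnitine palmitoyltransferase, was at 50.97, 52.1, 50.6, 55.8 and 52.6 CPM in the LS rats and 37.2, 43.6, 38.3, 37.1 and 39.6 CPM in the HS14 rats (log2 ratio -0.42 ± 0.06 (SE), adjusted *P* = 0.00745). The carnitine-acylcarnitine carrier *Slc25a20* gave -0.47 ± 0.08 and adjusted *P* = 0.017, which became 0.0525 without LS replicate 4. *Cpt1a*, the outer and rate-limiting carnitine palmitoyltransferase, was at 377, 347, 290.2, 378 and 358 CPM in the LS rats and 202, 354, 179, 201 and 201 CPM in the HS14 rats and was not called (log2 ratio -0.62 ± 0.17 (SE), adjusted *P* = 0.0717). Of its HS14 rats, 4 lay below every LS rat and replicate 7 among the LS rats, and without replicate 7 the adjusted *P* was 0.000987. The dehydrogenase *Acadl* (-0.41 ± 0.06) and *Ech1* (-0.43 ± 0.08), an auxiliary isomerase, fell with adjusted *P* = 0.00819 and 0.016 and were called in all of those 10 fits. *Decr1*, *Crat*, *Etfdh*, *Hadha* and *Acot2* also fell, with log2 ratios of -0.44 ± 0.08, -0.25 ± 0.05, -0.25 ± 0.05, -0.22 ± 0.05 and -0.32 ± 0.07, and each lost its call without 1 or more libraries (adjusted *P* up to 0.0501 for *Decr1*, 0.0693 for *Crat*, 0.0852 for *Etfdh*, 0.116 for *Hadha* and 0.12 for *Acot2*). The last 5 and *Acadl*, *Ech1* and *Slc25a20* were named after their values were seen. The gene of the list that rose was *Ucp2*, a mitochondrial carrier that is abundant in macrophages, from 33.96, 27.2, 31.2, 27.9 and 32.9 CPM to 43.4, 50.1, 40.4, 50.2 and 36.99 CPM (log2 ratio 0.53 ± 0.10 (SE), adjusted *P* = 0.0209, up to 0.0692 with 1 library left out).

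**Figure D2:**
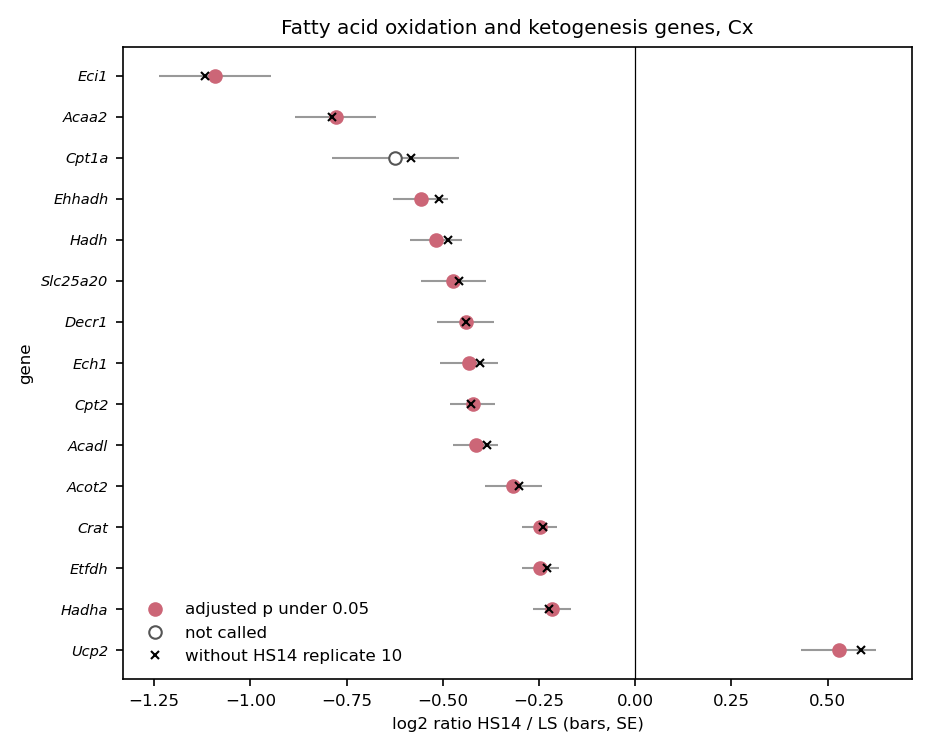
Log2 ratio of HS14 to LS in Cx (x axis) with its SE (bars) for 15 of the 38 tested genes of fatty acid oxidation and ketogenesis (y axis). Filled points have adjusted P under 0.05, open points do not, and crosses give the ratio without HS14 replicate 10. *Eci1* at -1.12 without that library and -1.09 with it lies farthest left of those plotted, and 14 of the 15 points lie below 0. The 15 are the genes of the list named in the text, chosen in part by small *P* or after their values were seen. They do not stand for the list, since 14 of them were called, while of all 38 genes 16 fell, 1 rose and 32 had a negative ratio.

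The omega-hydroxylase genes *Cyp4a1* and *Cyp4a2*, of a family that also makes 20-hydroxyeicosatetraenoic acid, fell as well. *Cyp4a2* had 2 gene records. The one with more reads (ENSRNOG00000030154) was at 5242, 3835, 3499, 4471 and 4864 CPM in the LS rats and 2644, 2781, 1878, 2491 and 2595 CPM in the HS14 rats (log2 ratio -0.82 ± 0.13 (SE), adjusted *P* = 0.0111), and the other (ENSRNOG00000009741) at 295, 231, 215, 265 and 254 CPM in the LS rats and 134, 166, 92.9, 152 and 131 CPM in the HS14 rats (log2 ratio -0.90 ± 0.14 (SE), adjusted *P* = 0.0108). Neither overlapped between groups, although reads of these near-identical copies can be split in counting, so each value is uncertain. *Cyp4a1* gave -0.63 ± 0.12 and adjusted *P* = 0.0219, up to 0.0693 with 1 library left out. *Plin5*, which coats lipid droplets at mitochondria, was low throughout, at 2.45, 2.89, 2.11, 3.601 and 1.65 CPM in the LS rats and 0.809, 1.26, 0.506, 0.628 and 0.899 CPM in the HS14 rats (log2 ratio -1.64 ± 0.29 (SE), adjusted *P* = 0.016, 0.0525 at most with 1 library left out, lost without HS14 replicate 9 or LS replicate 4). Outside the lists and chosen after their values were seen, *Vnn1*, a pantetheinase, was at 142, 91.8, 92.6, 103 and 122 CPM in the LS rats and 54.2, 60.4, 29.2, 40.4 and 31.5 CPM in the HS14 rats (log2 ratio -1.36 ± 0.20 (SE), adjusted *P* = 0.00993), and *Pex11a*, a peroxisome division gene, gave -0.92 ± 0.12 and adjusted *P* = 0.00672.

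Other lists of energy metabolism were counted in the same way and were not tested against fatty acid oxidation. Of 30 genes of the TCA cycle and pyruvate dehydrogenase, 1 fell and 0 rose, with a median of 0.01. The gene that fell was *Aco1*, a cytosolic aconitase that doubles as an iron regulatory protein, at 531, 538, 508, 591 and 621 CPM in the LS rats and 351, 389, 341, 338 and 319 CPM in the HS14 rats (log2 ratio -0.68 ± 0.07 (SE), adjusted *P* = 0.00382). All HS14 rats lay below all LS rats, and the call held with any 1 library left out. Citrate synthase *Cs* was not called (0.05 ± 0.05, adjusted *P* = 0.695). Among 15 gluconeogenesis genes 1 fell, and among 25 glycolysis genes 1 rose, *Hk2* (hexokinase 2, 0.62 ± 0.14, adjusted *P* = 0.0433, up to 0.109 with 1 library left out). These counts depended on the test. DESeq2 called 4 gluconeogenesis genes lowered and 0 raised, and 6 glycolysis genes raised and 1 lowered. At an unadjusted edgeR *P* under 0.05 there were 7 gluconeogenesis and 11 glycolysis genes. The ubiquitous hexokinase *Hk1* was at 42.1, 37.99, 49.4, 40.3 and 41.2 CPM in the LS rats and 50.8, 46.4, 54.7, 51.7 and 82.3 CPM in the HS14 rats (adjusted *P* = 0.126), with replicate 10 far above the other HS14 rats. *Glud1*, the glutamate dehydrogenase of ammonia production, fell from 1285, 1352, 1386, 1454 and 1423 CPM to 862, 1123, 1029, 842 and 947 CPM (log2 ratio -0.52 ± 0.08 (SE), adjusted *P* = 0.0111), and *Gpx1*, the selenium-dependent glutathione peroxidase, also fell (log2 ratio -0.43 ± 0.06 (SE), adjusted *P* = 0.0105).

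Some myeloid and alarmin transcripts rose, from very low levels. *S100a9*, a subunit of the neutrophil and monocyte alarmin calprotectin, was at 0.14, 0.217, 0.281, 0.467 and 0.177 CPM in the LS rats and 4.55, 1.52, 5.73, 12.6 and 0.959 CPM in the HS14 rats (log2 ratio 4.28 ± 0.73 (SE), adjusted *P* = 0.0153). The lowest HS14 rat, replicate 10, was still above the highest LS rat, and the HS14 rats spanned a wide range. Its partner *S100a8* did not pass the filter on low counts and lay at 0.21, 0.0722, 0.1405, 0 and 0.0589 CPM in the LS rats and 2.24, 0.596, 2.699, 8.39 and 0.4797 CPM in the HS14 rats. Of the 20 listed neutrophil and alarmin genes 3 rose, and only 5 passed that filter. *S100a9* was under the level of the filter (0.644 CPM) in every LS rat and so passed it through the HS14 rats alone, which makes the share of tested genes no measure of the list. Beside *S100a9* these were *Csf3r*, the granulocyte colony-stimulating factor receptor, from 1.89, 2.17, 2.32, 1.67 and 1.18 CPM to 6.23, 4.77, 6.52, 8.57 and 2.52 CPM (log2 ratio 1.64 ± 0.30 (SE), adjusted *P* = 0.0211, up to 0.0693 with 1 library left out), and the integrin *Itgam* (log2 ratio 1.495 ± 0.26 (SE), adjusted *P* = 0.0153). Summed over the list, the level was 17.1 to 31.4 CPM in LS, 34.6 to 62.4 CPM in replicates 6 to 9 and 17.8 CPM in replicate 10, within the LS range.

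The chemokines and cytokines that rose also did so from low levels. *Cxcl1*, a neutrophil chemoattractant, was at 0.7001, 0.506, 0.492, 0.667 and 0.294 CPM in the LS rats and 2.05, 1.46, 8.55, 5.57 and 2.698 CPM in the HS14 rats (log2 ratio 2.94 ± 0.51 (SE), adjusted *P* = 0.0155). *Ccl19*, which draws T and dendritic cells, was at 1.19, 0.506, 0.492, 0.867 and 0.589 CPM in the LS rats and 3.49, 1.26, 2.98, 5.7 and 2.34 CPM in the HS14 rats (log2 ratio 2.12 ± 0.40 (SE), adjusted *P* = 0.0229, up to 0.0635 with 1 library left out). Neither overlapped, but both HS14 groups varied several-fold. *Il1b* was at 2.38, 2.09, 2.32, 1.8 and 2.12 CPM in the LS rats and 4.23, 4.501, 5.45, 7.63 and 4.44 CPM in the HS14 rats (log2 ratio 1.30 ± 0.19 (SE), adjusted *P* = 0.00993), and its natural antagonist *Il1rn* at 1.61, 0.795, 0.913, 0.8002 and 1.06 CPM in the LS rats and 4.296, 4.501, 3.205, 3.86 and 1.799 CPM in the HS14 rats (log2 ratio 1.76 ± 0.29 (SE), adjusted *P* = 0.0134). For *Il1rn* replicate 10 was the lowest HS14 rat and lay close to the highest LS rat. Of 20 chemokine ligands 4 rose and 0 fell (median 0.60), and of 18 cytokines 3 rose and 0 fell (median 0.08). *Ccl2*, the monocyte chemoattractant, was at 2.66, 3.11, 3.301, 1.8 and 1.53 CPM in the LS rats and 4.42, 4.699, 19.7, 7.45 and 6.18 CPM in the HS14 rats and missed the threshold (log2 ratio 1.78 ± 0.42 (SE), adjusted *P* = 0.0502). It had no overlap and was called without replicate 10 (1.88 ± 0.44, adjusted *P* = 0.0444).

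Of 21 listed NF-kappa B pathway genes 4 rose and none fell (median 0.38, 1 to 5 raised with 1 library left out). The inhibitor *Nfkbie* was at 12.3, 10.7, 11.9, 12.3 and 11.5 CPM in the LS rats and 17.7, 16.02, 15.6, 15.8 and 17.6 CPM in the HS14 rats (log2 ratio 0.49 ± 0.07 (SE), adjusted *P* = 0.0109) and was called in each leave-one-out fit. *Nfkb2*, the p100 subunit, was at 29.1, 27.7, 28.3, 28.9 and 27.6 CPM in the LS rats and 32.4, 36.6, 34.2, 35.7 and 31.2 CPM in the HS14 rats (log2 ratio 0.26 ± 0.06 (SE), adjusted *P* = 0.0412, up to 0.0953). The atypical inhibitor *Nfkbiz*, which turns on *Lcn2*, gave 0.72 ± 0.15 (adjusted *P* = 0.0374, up to 0.0914; exact permutation *P* = 0.0159), and the kinase *Map3k8* gave 0.80 ± 0.18 (adjusted *P* = 0.0436, up to 0.111). *Socs3*, the feedback inhibitor of interleukin 6 signalling, rose from 2.87, 2.74, 1.405, 2.47 and 1.77 CPM to 6.35, 3.91, 7.76, 8.303 and 4.32 CPM (log2 ratio 1.45 ± 0.27 (SE), adjusted *P* = 0.0204, up to 0.056).

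Upstream sequence is shown for 4 of these raised genes because each holds GGG, any 2 bases and TTTCC, an NF-kappa B type pattern, in the 250 bases before its start. Sequences and positions are RefSeq's in the GRCr8 build, read 5′ to 3′ on the gene's strand, and capitals mark the pattern on either strand (in *Cxcl1* the first run is the reverse complement).
Cxcl1, chr14:17479346-17479473 (- strand): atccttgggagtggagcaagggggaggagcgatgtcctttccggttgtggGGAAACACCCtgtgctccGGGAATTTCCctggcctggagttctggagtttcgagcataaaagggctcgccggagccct
Il1rn, chr3:27520143-27520252 (+ strand): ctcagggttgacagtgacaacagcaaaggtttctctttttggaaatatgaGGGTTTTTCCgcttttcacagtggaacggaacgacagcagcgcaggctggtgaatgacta
Nfkb2, chr1:255108304-255108373 (+ strand): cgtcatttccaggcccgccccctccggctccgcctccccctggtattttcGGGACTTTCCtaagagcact
Nfkbiz, chr11:58251658-58251720 (+ strand): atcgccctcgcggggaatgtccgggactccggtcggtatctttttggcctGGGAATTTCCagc
The pattern was in 1.30% of 33469 promoters of this length, in 5 of the 17 listed NF-kappa B genes with a promoter in the table, in 4 of 22 chemokine ligands and in 3 of 23 cytokines. The other genes with the pattern in these lists, *Rel*, *Nfkbia*, *Tnfaip3*, *Cxcl2*, *Cxcl6*, *Ccl20*, *Il6* and *Ltb*, were not called raised. The raised genes *Nfkbie*, *Map3k8*, *Il1b* and *Ccl19* were not among those with the pattern, though some listed genes had no promoter in the table. These matches describe letters and not binding.

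Secreted proteins used as injury markers rose too. *Lcn2*, the iron-siderophore carrier lipocalin 2 used as a tubular injury marker, was at 2.94, 2.96, 2.04, 0.934 and 1.65 CPM in the LS rats and 4.86, 7.68, 10.4, 10.6 and 5.396 CPM in the HS14 rats (log2 ratio 1.90 ± 0.32 (SE), adjusted *P* = 0.0152). *Chi3l1*, a chitinase-like protein, was at 0.7701, 0.506, 0.421, 1.2 and 0.824 CPM in the LS rats and 3.24, 5.82, 2.699, 4.89 and 2.58 CPM in the HS14 rats (log2 ratio 2.35 ± 0.33 (SE), adjusted *P* = 0.00819). Both were separated in all rats and held with any 1 library left out. *Dmbt1*, a scavenger receptor protein of mucosal surfaces, gave 1.81 ± 0.31 (adjusted *P* = 0.0154, and 0.0525 without LS replicate 4). Of 29 injury markers 4 rose, *Lcn2*, *Chi3l1*, *Clu* and *Vim*, and none fell in the fit of all 10 rats (median 0.35). Without replicate 10, 3 rose and 1 fell, and over the leave-one-out fits 2 to 4 rose and 0 to 1 fell. The *Clu* call was lost in 9 of 10 leave-one-out fits, replicate 10 included.

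General leukocyte markers were higher at HS14, and the number called depended on single libraries. All 19 tested general leukocyte markers had a positive log2 ratio, 7 of them called with replicate 10 and 12 without it, and 4 without LS replicate 4 (median 0.62 and 0.77). Their summed level was 234 to 312 CPM in LS, 382 to 455 CPM in replicates 6 to 9 and 317 CPM in replicate 10. *Ptprc*, the pan-leukocyte antigen CD45, was at 25.6, 19.6, 22.9, 19.5 and 17.8 CPM in the LS rats and 39.5, 41.4, 33.1, 40.03 and 26.4 CPM in the HS14 rats (log2 ratio 0.78 ± 0.13 (SE), adjusted *P* = 0.0153, and 0.0525 without LS replicate 4). *Laptm5* (0.75 ± 0.11), *Coro1a* (0.77 ± 0.12), *Rac2* (0.80 ± 0.12) and *Itgb2* (0.79 ± 0.13), all of blood cell lineages, rose, with adjusted *P* = 0.00993, 0.0116, 0.0111 and 0.015 and in all 10 leave-one-out fits.

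For macrophage and monocyte markers 4 of 25 rose with replicate 10 and 12 without it, while leaving out any other single library gave 0 to 4 raised, with 0 without LS replicate 4, and all 25 had a positive ratio. *Lyz2*, the lysozyme of myeloid cells, was at 147, 112, 187, 153 and 163 CPM in the LS rats and 319, 256, 448, 420.3 and 223 CPM in the HS14 rats (log2 ratio 1.13 ± 0.19 (SE), adjusted *P* = 0.0153, and 0.0501 without LS replicate 4). *Csf1r*, the receptor that defines the macrophage lineage, was at 49.6, 42.6, 44.2, 46.9 and 46.2 CPM in the LS rats and 69.6, 71.8, 66.0, 87.2 and 44.4 CPM in the HS14 rats, with replicate 10 within the LS range, and was called only without it (log2 ratio 0.56 ± 0.14 (SE), adjusted *P* = 0.056, against 0.68 ± 0.08, adjusted *P* = 0.00316). The same held for *Cd74* (adjusted *P* = 0.0663 and 0.0038), *Cybb* (0.0639 and 0.00405) and *Fyb* (0.0716 and 0.00459). Of the MHC class II genes, 2 of 10 rose with replicate 10, 4 without it and 0 to 1 with any other library left out, and the class II chain *RT1-Da* was at 146, 138, 168, 149.6 and 132 CPM in the LS rats and 256, 220.5, 236, 274 and 161 CPM in the HS14 rats (log2 ratio 0.65 ± 0.12 (SE), adjusted *P* = 0.0235, up to 0.0691; exact permutation *P* = 0.0159).

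Lymphocyte, adhesion and complement transcripts were raised in part. Of 14 T cell markers 5 rose, 4 without replicate 10 and 1 to 4 with any 1 library left out. In this list 3 genes, *Cd3e* and another of those raised among them, passed the filter on low counts through the HS14 rats alone. The kinase *Lck* (0.82 ± 0.15, adjusted *P* = 0.0218, up to 0.0722 with 1 library left out) and the receptor chain *Cd3e* (1.88 ± 0.35, adjusted *P* = 0.0227, up to 0.0615) were among them. Replicate 10 was inside the range of the other HS14 rats for the mean of this list, at 0.79 against 0.58 to 0.92, unlike the general and macrophage lists. With edgeR 0 of 10 NK and cytotoxic markers were called (5 at an unadjusted *P* under 0.05, 1 with DESeq2), and 0 of the 2 tested of 12 B and plasma cell markers (1 and 1). Of 14 leukocyte adhesion genes 7 rose with replicate 10 and 7 of 15 without it, with 3 to 7 over the leave-one-out fits, and 1 of those raised passed the filter through the HS14 rats alone. Of 24 complement genes 4 rose with replicate 10, 10 without it and 0 to 5 with any other library left out. The protease *C1s* was at 30.3, 34.9, 42.3, 32.8 and 30.4 CPM in the LS rats and 84.3, 60.2, 90.97, 87.7 and 34.3 CPM in the HS14 rats, with replicate 10 at the LS level (log2 ratio 1.07 ± 0.22 (SE), adjusted *P* = 0.0353, and 1.24 ± 0.13, adjusted *P* = 0.00232 without it), and *C3* behaved alike (0.999 ± 0.21, and 1.16 ± 0.14, adjusted *P* = 0.00316 without it). Red blood cell markers, which would mark retained blood, had 0 of 6 genes called with edgeR (0 at an unadjusted *P* under 0.05, 0 with DESeq2) and summed to 129 to 391 CPM in LS and 182 to 431 CPM at HS14. Their median log2 ratio was 0.38, with 5 of 6 positive. The mean log2 level of the list, relative to the LS mean, was 0.69, 0.31, -0.08, 0.34 and 0.51 in replicates 6 to 10, above the LS range of -0.37 to 0.31 in 4 of these 5 rats and in replicate 7 by less than 0.01. The part of retained blood in the rise of leukocyte genes was not tested.

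**Figure D3:**
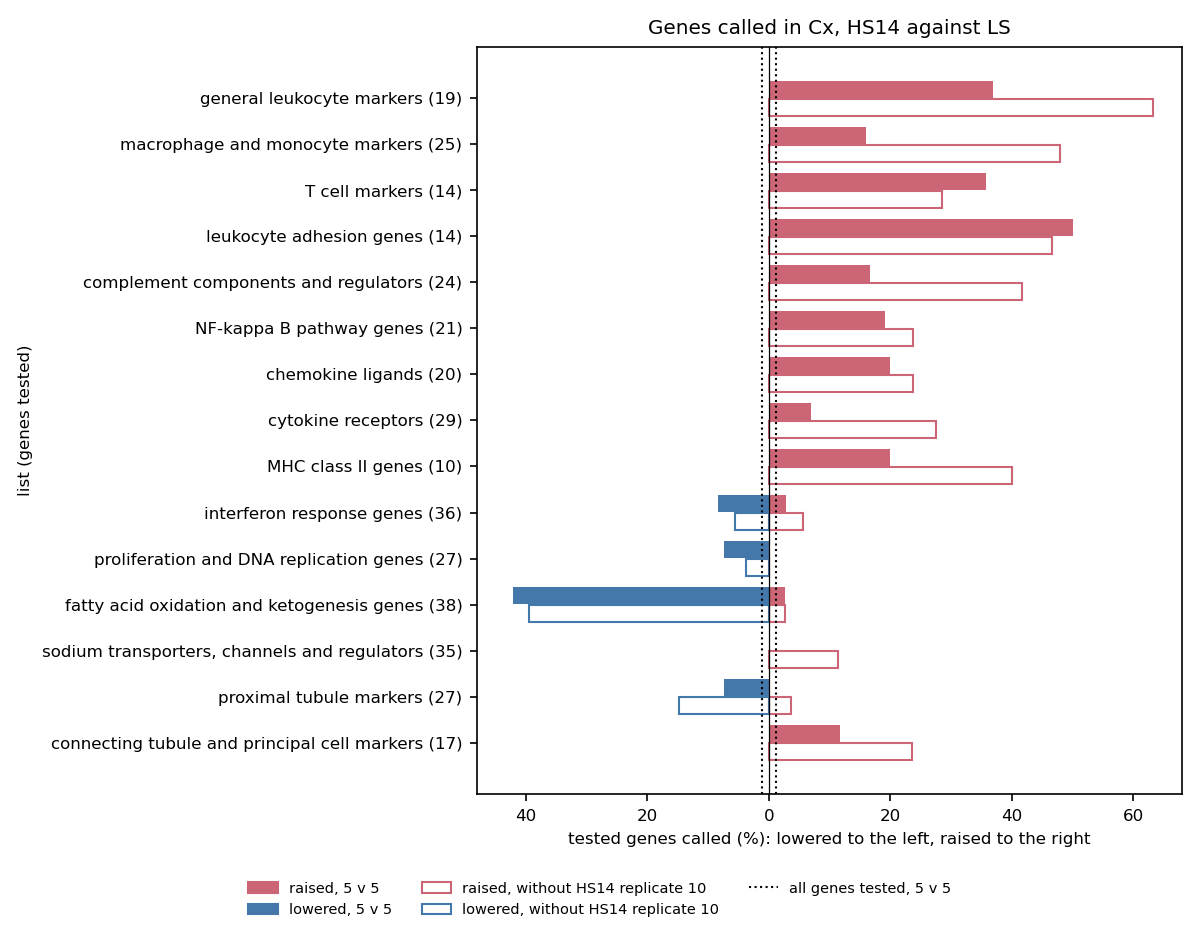
Share of the tested genes of 15 lists that were raised (right) or lowered (left) at HS14 in Cx, in percent (x axis), with the number tested beside each list (y axis). Filled bars are the fit of 5 against 5 rats, open bars the fit without HS14 replicate 10, and dotted lines the shares over all genes tested (1.14% raised, 1.18% lowered). General leukocyte markers go from 7 to 12 genes raised without that library, while fatty acid oxidation goes from 16 to 15 lowered.

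Interferon-stimulated genes were called in both directions at this time. Of 36 tested, 3 fell and 1 rose, 11.1% of the list against 2.33% of all genes tested. In this list 24 had a negative ratio and the median was -0.15. *Mx1*, an antiviral GTPase, was at 20.3, 11.99, 13.6, 17.2 and 14.4 CPM in the LS rats and 12.5, 5.43, 6.92, 5.12 and 6.24 CPM in the HS14 rats (log2 ratio -1.10 ± 0.24 (SE), adjusted *P* = 0.0407; exact permutation *P* = 0.0159), where replicate 6 overlapped the LS range. *Usp18*, the protease that removes ISG15, was at 4.55, 3.03, 4.14, 4.33 and 4.77 CPM in the LS rats and 2.49, 1.52, 2.36, 0.853 and 1.92 CPM in the HS14 rats (log2 ratio -1.20 ± 0.26 (SE), adjusted *P* = 0.0416). *Oas1a*, an oligoadenylate synthetase with close paralogs that can share its reads, was at 5.11, 3.68, 4.35, 4.47 and 3.06 CPM in the LS rats and 2.304, 1.32, 1.29, 0.404 and 1.98 CPM in the HS14 rats (log2 ratio -1.52 ± 0.35 (SE), adjusted *P* = 0.046). The 3 calls were lost in 7 to 9 of 10 leave-one-out fits (adjusted *P* up to 0.103, 0.102 and 0.112), and without replicate 10 they were 0.0515, 0.0471 and 0.0372. *Irf7* (-1.17 ± 0.37, adjusted *P* = 0.116) and *Isg15* (-0.501 ± 0.15, adjusted *P* = 0.107) were not called. The gene that rose was the transcription factor *Irf1*, at 18.2, 18.5, 19.5, 17.5 and 18.2 CPM in the LS rats and 33.4, 26.5, 32.7, 27.2 and 19.4 CPM in the HS14 rats (log2 ratio 0.60 ± 0.13 (SE), adjusted *P* = 0.0353, up to 0.0986; exact permutation *P* = 0.0159).

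*Oas1a* is shown with the pattern of interferon-responsive promoters, GAAA, any 2 bases and GAAA, in capitals, searched on both strands in the 250 bases before the start.
Oas1a, chr12:41330375-41330465 (+ strand): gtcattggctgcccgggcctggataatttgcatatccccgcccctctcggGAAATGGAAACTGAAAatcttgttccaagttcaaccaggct
Its 2 matches overlap. The pattern was in 17 of the 25 listed interferon genes with a promoter in the table and in 3.41% of all 33469 promoters. Of those 17 only *Oas1a* was called, and *Irf1*, *Mx1* and *Usp18* were not among them, though some listed genes had no promoter in the table.

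A pair of core mitotic genes fell. Of 27 proliferation and replication genes 2 fell, none rose and 24 had a negative ratio, with a median of -0.57. DESeq2 called 10 of them lowered and 0 raised, and 17 had an unadjusted edgeR *P* under 0.05. *Cdk1*, the kinase that starts mitosis, was at 8.61, 5.06, 9.69, 8.34 and 6.01 CPM in the LS rats and 1.81, 3.84, 3.32, 4.22 and 3.12 CPM in the HS14 rats (log2 ratio -1.20 ± 0.24 (SE), adjusted *P* = 0.0281, up to 0.0848 with 1 library left out). *Ccnb1*, its cyclin, was at 7.84, 4.84, 9.76, 9.87 and 4.89 CPM in the LS rats and 1.56, 3.91, 3.77, 3.81 and 2.16 CPM in the HS14 rats (log2 ratio -1.28 ± 0.30 (SE), adjusted *P* = 0.0476, up to 0.123, and 0.0643 without replicate 10). *Mki67* had no overlap but missed the threshold (-0.89 ± 0.21, adjusted *P* = 0.0541). The spindle gene *Troap* fell from 3.43, 3.11, 4.21, 3.33 and 2.47 CPM to 0.436, 1.06, 1.24, 1.66 and 1.26 CPM (log2 ratio -1.52 ± 0.28 (SE), adjusted *P* = 0.0213, up to 0.0606). The licensing factors *Mcm2* to *Mcm7* were not called and lay between -0.20 and 0.12 on the log2 scale.
Ccnb1, chr2:33655226-33655357 (- strand): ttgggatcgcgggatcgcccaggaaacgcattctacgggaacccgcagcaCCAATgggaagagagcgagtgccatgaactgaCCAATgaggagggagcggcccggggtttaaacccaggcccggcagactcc
The *Ccnb1* window is shown with its CCAAT boxes in capitals, a pattern common in promoters of mitotic genes. One or more stood in 15 of the 21 listed genes with a promoter in the table, *Cdk1* and *Ccnb1* among them, and in 34.0% of all promoters.

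Sodium transport genes were not called at HS14 in the comparison of all 10 rats, and replicate 10 bore on most of their ratios. With edgeR 0 of 35 listed transporters, channels and regulators passed the threshold (11 at an unadjusted *P* under 0.05, 4 with DESeq2), 30 had a positive ratio and the median was 0.20, and in the fit without replicate 10 *Slc9a3*, *Scnn1b*, *Scnn1g* and *Tsc22d3*, 4 in all, rose (median 0.11). *Scnn1g*, the gamma subunit of the epithelial sodium channel, was at 40.6, 44.6, 39.8, 44.4 and 43.3 CPM in the LS rats and 51.1, 49.6, 69.5, 58.9 and 92.99 CPM in the HS14 rats (log2 ratio 0.60 ± 0.15 (SE), adjusted *P* = 0.0613). Its groups did not overlap, replicate 10 was the highest rat, and without it the ratio was smaller and called (0.43 ± 0.09, adjusted *P* = 0.0337). *Scnn1b* gave 0.60 ± 0.18 (adjusted *P* = 0.11) with that library and 0.36 ± 0.09, adjusted *P* = 0.0477 without it. The proximal sodium-proton exchanger *Slc9a3* was at 184, 189, 185, 196 and 218 CPM in the LS rats and 259, 227, 285, 283 and 177 CPM in the HS14 rats, with replicate 10 the lowest of all 10 rats, and it was called only without it (log2 ratio 0.34 ± 0.12 (SE), adjusted *P* = 0.144, against 0.44 ± 0.07, adjusted *P* = 0.0116). The thiazide-sensitive cotransporter *Slc12a3* was at 1091, 977, 983, 937 and 898 CPM in the LS rats and 1118, 1151, 941, 953 and 1972 CPM in the HS14 rats (log2 ratio 0.33 ± 0.18 (SE), adjusted *P* = 0.373, against 0.09 ± 0.08, adjusted *P* = 0.592). For *Slc12a1*, the furosemide-sensitive cotransporter, and *Umod*, both of the thick ascending limb, the sign depended on replicate 10 (0.12 ± 0.13 with it and -0.03 without it for *Slc12a1*, 0.10 ± 0.18 and -0.11 for *Umod*).

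Single segment genes did change. *Slc5a1*, the glucose cotransporter SGLT1 of the late proximal tubule, was at 18.1, 19.0, 18.3, 18.8 and 17.8 CPM in the LS rats and 31.3, 24.7, 27.6, 33.6 and 34.3 CPM in the HS14 rats (log2 ratio 0.72 ± 0.09 (SE), adjusted *P* = 0.00525). The LS rats lay close together and every HS14 rat was above them. The early proximal glucose cotransporter *Slc5a2* was not called (-0.12 ± 0.11, adjusted *P* = 0.66, and -0.01 without replicate 10). The organic anion transporters *Slc22a6*, at 1632, 1587, 1532, 1779 and 1819 CPM in the LS rats and 1277, 1398, 1161, 1184 and 1267 CPM in the HS14 rats (log2 ratio -0.41 ± 0.07 (SE), adjusted *P* = 0.0153, and 0.0525 without LS replicate 4), and *Slc22a8* (-0.32 ± 0.07, adjusted *P* = 0.0441, up to 0.113) fell. They were the 2 of 27 proximal tubule markers that did. Without replicate 10, 4 of these markers fell and 1 rose, and 0 to 4 fell over the leave-one-out fits, with 4 also without replicate 7 and 0 without LS replicate 4.

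*Ptgs2*, the inducible cyclooxygenase that rat cortex expresses mainly in the macula densa and nearby thick ascending limb, was at 3.71, 5.34, 15.2, 14.2 and 12.01 CPM in the LS rats and 3.67, 2.52, 2.92, 3.097 and 2.098 CPM in the HS14 rats (log2 ratio -1.82 ± 0.36 (SE), adjusted *P* = 0.0277, up to 0.0848 with 1 library left out). Its HS14 rats lay close together below every LS rat, while LS replicates 1 and 2 lay well below the other LS rats. *Nos1*, the neuronal nitric oxide synthase of the same cells, was at 7.84, 10.8, 9.904, 6.47 and 7.595 CPM in the LS rats and 6.29, 4.43, 5.62, 5.03 and 6.48 CPM in the HS14 rats and was not called (log2 ratio -0.61 ± 0.17 (SE), adjusted *P* = 0.0761). Of the 11 tested renin-angiotensin genes 0 were called with edgeR (2 at an unadjusted *P* under 0.05, 1 with DESeq2). *Hpgd*, which inactivates prostaglandins, rose (log2 ratio 0.84 ± 0.14 (SE), adjusted *P* = 0.0131), and *Ephx1*, the microsomal epoxide hydrolase, fell (log2 ratio -0.52 ± 0.08 (SE), adjusted *P* = 0.0124), both with no overlap and with any 1 library left out. The water channel *Aqp2* of principal cells was at 122, 129.9, 132, 139 and 175 CPM in the LS rats and 208, 158, 318, 256 and 304 CPM in the HS14 rats (log2 ratio 0.83 ± 0.17 (SE), adjusted *P* = 0.0331, up to 0.088), the magnesium channel *Trpm6* rose (log2 ratio 0.62 ± 0.12 (SE), adjusted *P* = 0.027, up to 0.0852), and the hormone *Stc1* was at 16.5, 18.8, 17.1, 18.7 and 26.3 CPM in the LS rats and 54.4, 18.5, 67.97, 56.2 and 67.7 CPM in the HS14 rats (log2 ratio 1.44 ± 0.28 (SE), adjusted *P* = 0.027, up to 0.0848), with replicate 7 within the LS range.

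Several of the most clearly separated genes lay outside the pathways above. *Prima1*, the membrane anchor of acetylcholinesterase, was at 180.3, 184, 156, 198 and 108 CPM in the LS rats and 30.4, 59.1, 22.3, 21.7 and 24.6 CPM in the HS14 rats (log2 ratio -2.39 ± 0.27 (SE), adjusted *P* = 0.00391). *Csmd1*, a membrane protein with complement control domains, was at 24.5, 16.97, 32.8, 35.7 and 45.4 CPM in the LS rats and 7.72, 6.16, 6.18, 9.11 and 5.16 CPM in the HS14 rats (log2 ratio -2.17 ± 0.24 (SE), adjusted *P* = 0.00391). *Nrep*, a neuronal regeneration related protein, was at 143, 112, 123, 132 and 96.3 CPM in the LS rats and 52.1, 56.5, 35.3, 42.3 and 31.5 CPM in the HS14 rats (log2 ratio -1.48 ± 0.16 (SE), adjusted *P* = 0.00391). In all 3 the gap between the lowest LS rat and the highest HS14 rat was wide, and none lost its call with a library left out. *Gjb2*, connexin 26, fell by a smaller but very even amount, from 136, 125, 126, 135 and 149 CPM to 70.4, 91.5, 72.5, 69.02 and 70.1 CPM (log2 ratio -0.85 ± 0.08 (SE), adjusted *P* = 0.00382). The hepatocyte lectin gene *Asgr1* (-1.47 ± 0.17), *Dlgap3* (-2.76 ± 0.44) and *Hhat* (-1.53 ± 0.26) fell and held in the same way. Raised in the same manner were *Upp1*, uridine phosphorylase, at 6.44, 4.98, 5.62, 4.47 and 3.94 CPM in the LS rats and 13.7, 10.5, 11.02, 10.9 and 10.6 CPM in the HS14 rats (log2 ratio 1.16 ± 0.15 (SE), adjusted *P* = 0.00525), the phenol sulfotransferase *Sult1a1* (0.80 ± 0.11), *Cwh43* (0.81 ± 0.10) and the lysosomal protease *Ctsz* (0.70 ± 0.10).

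**Figure D4:**
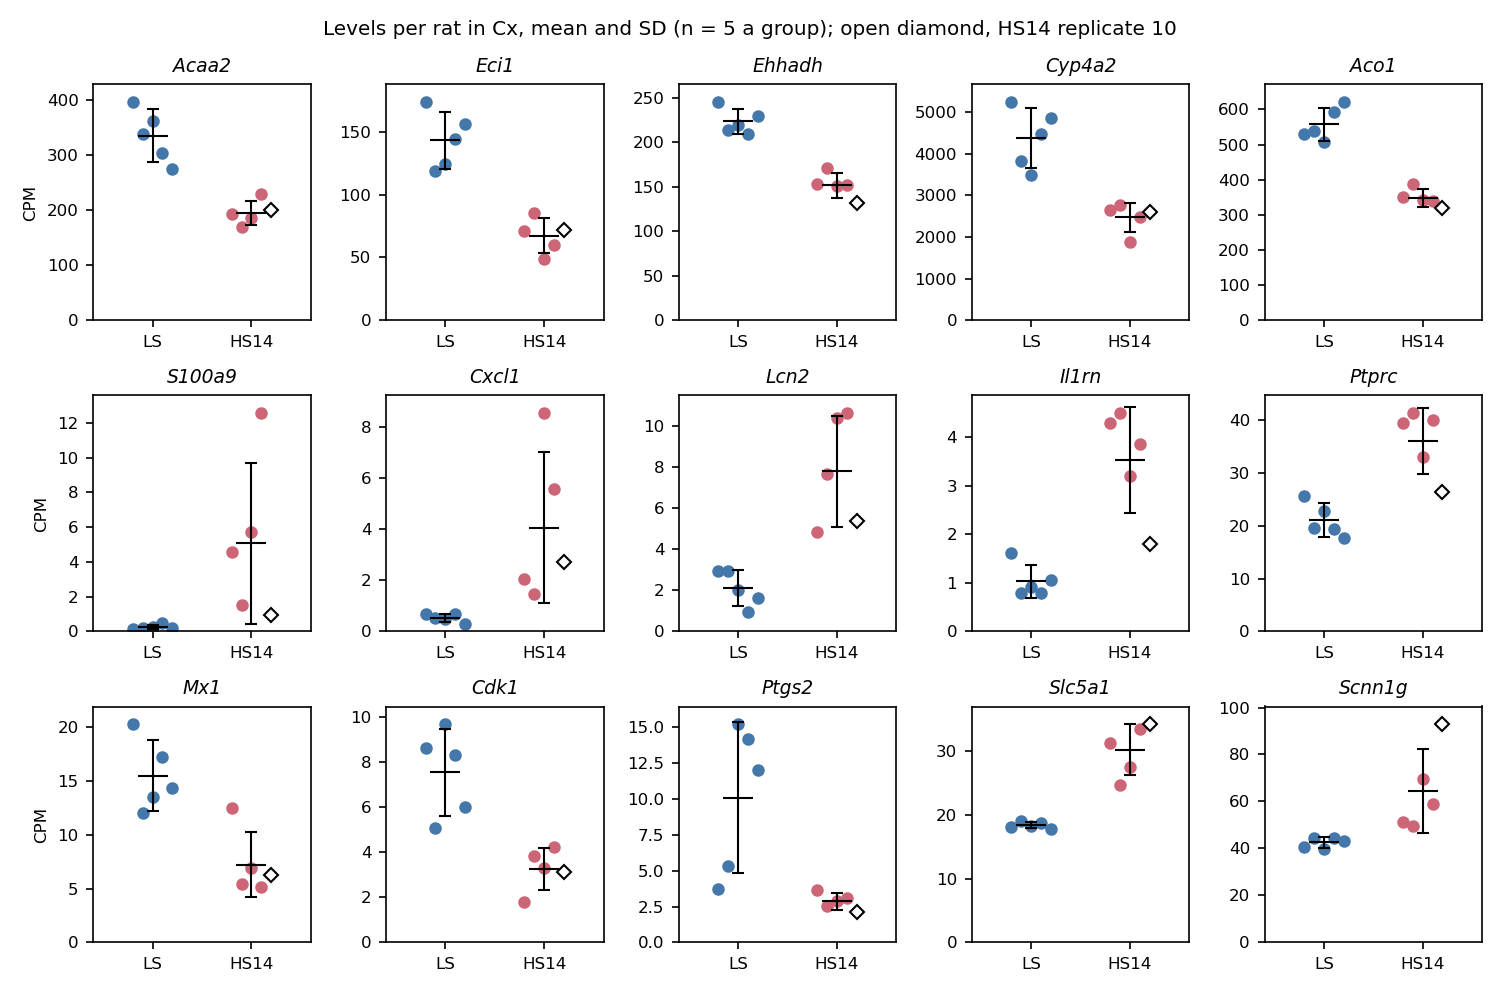
CPM (y axis, from 0) of 15 genes in each LS and HS14 Cx library (x axis), with the mean and SD of the 5 rats in each group; *Cyp4a2* is the record with more reads. Open diamonds mark HS14 replicate 10. It lies inside its group for *Eci1* (71.8 CPM), at the low end for *Ptprc* (26.4 CPM) and far above its group for *Scnn1g* (93.0 CPM).

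Genes called only with or only without replicate 10 were also listed. The raised genes called only with it and with the smallest *P* were *Prr5l*, *Il18rap*, *Lpl*, *Cmtm7*, *Osbpl8* and *Piga*, with adjusted *P* of 0.0515 to 0.0615 without it, and the lowered ones were *Spc24*, *Mx1*, *Igf1*, *Tpx2*, *Pitpnm3* and *Tsku*, at 0.0515 to 0.0551. Those called only without it were led by *Fcnb*, *Csf1r*, *Gba3*, *Cd74*, *Cybb* and *Fyb* for the raised and *Pmepa1*, *Nrd1*, *Pth1r*, *Me1*, *Fam25a* and *Slc37a4* for the lowered. The first set thus stayed close to the threshold, and in the second *Fcnb*, *Csf1r*, *Cd74*, *Cybb* and *Fyb* are genes of leukocytes. *Fcnb* passed the filter on low counts only without that library.

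The HS21 rats were set directly against the HS14 rats for the genes and lists described. Over all 14395 genes tested in that comparison 935 were higher and 1395 lower at HS21 (16.2%, with 6.50% higher and 9.69% lower). Without HS14 replicate 10, 1476 were higher and 2048 lower. Scaling by total counts turned the split of the full comparison to 2084 higher and 644 lower, with the median of all genes moving from 0.01 to 0.13. Values below include replicate 10 unless stated. The 2 comparisons share the HS14 rats, so the values are given side by side only. *Eci1* (0.20 ± 0.20, adjusted *P* = 0.527), *Prima1* (0.04 ± 0.28, adjusted *P* = 0.939) and *Ptgs2* (0.36 ± 0.28, adjusted *P* = 0.403) showed no further difference past the threshold. *Ehhadh* (-0.41 ± 0.08, adjusted *P* = 0.0111) was lower still. Within the lists, 14 of 38 fatty acid oxidation genes and 18 of 30 TCA cycle genes were lower at HS21, against 16 and 1 lowered from LS to HS14. These counts were 8 and 12 with total counts, and 15 and 18 without replicate 10. Of 35 sodium transport genes 2 were higher and 4 lower at HS21, against 12 higher and 6 lower without replicate 10. Among leukocyte genes *S100a9* (-0.70 ± 0.58, adjusted *P* = 0.426) and *Cxcl1* (-0.95 ± 0.52, adjusted *P* = 0.232) did not differ past the threshold, whereas *Ptprc* (1.09 ± 0.26, adjusted *P* = 0.0192) and *Cd3e* (2.08 ± 0.45, adjusted *P* = 0.0143) were higher at HS21. *Mx1* was higher at HS21 than at HS14 (1.21 ± 0.31, adjusted *P* = 0.0243), as were 18 of 36 interferon genes. Without replicate 10, 14 interferon genes were higher and 1 lower. *Slc5a1* was lower at HS21 (-0.71 ± 0.13, adjusted *P* = 0.0101).

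The change at HS14 was not shown to differ between Cx and OM. In a fit of 20 libraries with a tissue by diet term, 0 of 15091 genes (0%) passed an adjusted *P* under 0.05 with edgeR, 559 had an unadjusted *P* under 0.05 and DESeq2 called 9. The lowest adjusted *P* was 0.577. *Prima1* gave -2.39 ± 0.27 in Cx and -2.02 ± 0.64 in OM, and *Cxcl1* 2.94 ± 0.51 and 2.999 ± 0.76. Other named genes were less alike, with *Lcn2* at 1.90 ± 0.32 and 0.42 ± 0.50 and *Ccl19* at 2.12 ± 0.40 and 0.42 ± 0.49. The interaction term on the log2 scale was -2.19 for *Ptgs2*, -0.95 for *Nrep* and 0.82 for *Sult1a1*, against -0.40 for *Prima1* and -0.03 for *Cxcl1*. None of these terms passed the threshold, which does not show that the tissues respond alike. The OM libraries at HS14 held 5408126 to 16557589 reads, the common dispersion was 0.136 in OM against 0.0263 in Cx, and 1 gene was called in the OM comparison of HS14 with LS (0.00694% of 14417).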

How the data were processed

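Poly(A) RNA of 30 pieces of rat kidney was sequenced, and 10 Cx libraries (LS 5, HS14 5) were compared. Per the labels and file headers, the authors aligned reads with HISAT2 2.0.5, used StringTie 1.3.3b and counted reads per gene with featureCounts 1.5.0-p3, and the deposited values used are these raw counts for 32545 genes. Deposited FPKM columns, and the authors' own fold changes and *P* values, were not used. Positions of genes are those of the deposited table (Rnor_6.0).

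Counts were tested with edgeR 4.0.16 in R 4.3.3 (filterByExpr, TMM, quasi-likelihood F-test, Benjamini-Hochberg adjustment over all genes tested, threshold 0.05), with the 2 groups compared and no covariate. Single genes also had a two-sided exact permutation test of mean log2 CPM. Libraries held 13953714 to 21842843 counts. The members and the 56 gene lists (1138 of 1157 symbols matched) were chosen with earlier results of these data known, so list counts have no test. Named genes were the 12 with the largest ratio and the 6 with the smallest *P* each way (no overlap, mean of at least 1 CPM), up to 6 of each list by *P* and its defining markers, genes named in the study, and up to 6 each way that depended on replicate 10 or had the smallest interaction *P*. Alternatives were DESeq2 1.42.0, its size factors, total counts, no filter on low counts, all 15 Cx libraries in 1 fit and leaving out each library. The edgeR steps were tested on simulated data, and the DESeq2 step was not. Promoter sequence came from RefSeq (GRCr8) and was used for letters only. Results of some listed genes are not reported here, although they remain in the counts.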

Additional observations from a re-analysis of the deposited data

Results flagged for a closer look

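In 228 groups of 5 rats, the gap between an extreme rat and its nearest neighbour, as a share of the group's range, passed Dixon's 95% value of 0.71 in 19 groups (8.33%). The groups are named genes measured in the same 10 rats, and some genes were named for their values. They are not independent, so the nominal rate of 1 in 20 cannot be set against this share. Replicate 10 of HS14, already singled out above, gave 8 of the 19. It was the highest rat for *Hk1* (0.769), *Slc12a1* (0.876), *Slc12a3* (0.797), *Scnn1b* (0.751), *Umod* (0.842) and *Cwh43* (0.724) and the lowest for *Slc5a2* (0.75) and *Lrp2* (0.815), all tubule genes but *Hk1* and *Cwh43* and all with the gap share in brackets.

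The other gap shares belonged to *Cpt1a* (HS14 replicate 7 highest, 0.866), *Ccl2* (HS14 replicate 8 highest, 0.801), *RT1-Db1* (LS replicate 1 highest, 0.90), *Mx1* (HS14 replicate 6 highest, 0.757), *Stc1* (LS replicate 5 highest, 0.763), *Stc1* (HS14 replicate 7 lowest, 0.726), *Prima1* (HS14 replicate 7 highest, 0.767), *Hhat* (HS14 replicate 6 highest, 0.797), *Gjb2* (HS14 replicate 7 highest, 0.844), *Upp1* (HS14 replicate 6 highest, 0.844) and *Gpx1* (LS replicate 4 lowest, 0.727).

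Among the named genes called from LS to HS14, 32 also differed between HS14 and HS21 in the direct test of edgeR (adjusted *P* under 0.05), and the values in brackets are log2 ratios of HS21 to HS14. Of the fatty acid oxidation genes, *Ehhadh* (-0.41), *Hadh* (-0.37), *Acadl* (-0.29), *Etfdh* (-0.41) and *Acot2* (-0.45) were lower at HS21. Other genes lower at HS21 were *Aco1* (-0.25), *Slc5a1* (-0.71), *Slc22a8* (-0.35), *Ddah1* (-0.38), *Nrep* (-0.77) and *Gjb2* (-0.34). Leukocyte and cytokine genes higher at HS21 were *Il1rn* (1.14), *Itgb2* (0.99), *Itgal* (1.43), *Ptprc* (1.09), *Laptm5* (1.16), *Coro1a* (1.02), *Rac2* (1.16), *Aif1* (1.05), *Lck* (1.44), *Cd3e* (2.08), *RT1-Da* (0.90) and *Cxcr6* (1.68). The interferon genes *Mx1* (1.21), *Usp18* (1.03) and *Irf1* (1.21) were higher as well, as were *Ucp2* (0.88), *Clu* (0.45), *Chi3l1* (1.18), *Cwh43* (0.56), *Upp1* (0.58) and *Ctsz* (1.16).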

How the results depend on the processing

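With HS14 against LS, DESeq2 called 492 raised and 429 lowered genes, against 162 and 168 with edgeR, and a fit of all 15 Cx libraries called 83 raised. Leaving out 1 library gave 42 to 274 raised and 43 to 232 lowered genes, the fewest without LS replicate 4 and the most raised without HS14 replicate 10. With HS21 against HS14, DESeq2 called 1475 higher genes and total counts gave 2084 higher and 644 lower, against 935 and 1395, and leaving out 1 library gave 337 to 1476 higher and 692 to 2048 lower. For these shifts the cause was not tested. The tissue by diet interaction had 0 calls in either direction with any 1 library left out, while DESeq2 called 2 higher and 7 lower in Cx.

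Of the 93 named genes called, 0 changed sign under any alternative run, but 34 lost their call in the fit of all 15 Cx libraries, 8 with no filter on low counts and 4 with total counts or the DESeq2 size factors. Of 114 named genes tested, 3 changed sign without HS14 replicate 10, none of them called. Over the leave-one-out fits the log2 ratio was -0.026 to 0.176 for *Slc12a1* and -0.112 to 0.186 for *Umod*, the lowest without that library, and -0.094 to 0.043 for *Lrp2*, the highest without it. No paired analysis was possible because LS, HS14 and HS21 share no replicate numbers in Cx. For the interaction, equal numbers in Cx and OM had correlations of -0.0863 to 0.1648, 7 of 10 above 0.1 and 8 of 10 highest with their own number, a hint from the data that equal numbers may share a rat. No source used here says so and not every pair passed 0.1, so the samples were not paired in the main test, and the fit with a replicate block also had 0 calls in either direction. Genes near 1 CPM rest on few reads in each library, and a missed threshold there does not show equal levels.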
